A study of Mus musculus with 61 samples.

Results

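A morphine challenge was compared with a saline challenge in D2 nuclei of mice that had both a morphine history and a long withdrawal behind them. The comparison rests on 15 of the 61 RNA libraries of the series, chosen by the labels alone: 7 libraries of the group MM and 8 of the group MS. In these names the first letter gives the repeated treatment and the second the challenge, M for morphine and S for saline. The MM mice received morphine on each of 15 days, spent 30 days of withdrawal in the home cage, and were killed 1 h after a morphine bolus. The MS mice had the same history and were killed 1 h after a saline bolus. Morphine was given as the sulphate salt by intraperitoneal injection, and the labels list 20 and 10 mg/kg without saying which dose a mouse received. All mice of both groups were males that carried a D2-Cre driver and the Cre-dependent LSL-eGFP::L10a allele, which marks the nuclei of cells with an active Drd2 promoter with a fluorescent tag for sorting. That driver also acts in cholinergic interneurons. Nuclei were sorted by fluorescence from frozen punches of the nucleus accumbens. Ages are not given in the labels, and neither is whether a library holds 1 mouse or a pool, so p-values measure the spread between libraries. The D2 libraries of mice with a saline history (7 SM and 7 SS) and the D1 libraries of the same challenge comparison (7 MM and 9 MS, from D1-Cre mice) serve below only to place the result.

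The nucleus accumbens is the ventral part of the striatum, and its projection neurons fall into a class that uses the dopamine receptor Drd1 and a class that uses Drd2. Neurons of the Drd2 class make enkephalin from Penk and carry the adenosine receptor Adora2a. Dopamine acting on Drd2 and opioids acting on their Gi/o-coupled receptors both lower cyclic AMP in the cells that carry them. Immediate early genes are transcribed within minutes when cyclic AMP, calcium or ERK signalling rises in a neuron. Their products are transcription factors such as Egr1 and Fos, synaptic effectors such as Arc, and feedback inhibitors such as the Dusp phosphatases. Nuclear RNA is rich in unspliced transcripts, so counts from sorted nuclei lie close in time to transcription.

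Total counts ran from 15646872 to 23139243 in MM libraries and from 15948986 to 23592399 in MS libraries. A background was measured in each library on 1464 receptor genes of the olfactory and vomeronasal epithelia, as library-scaled counts (CPM) per kb of gene span. This receptor density was 0.324 to 0.651 in MM libraries and 0.325 to 0.530 in MS libraries, and MM replicates 6 and 7 had the highest values of the 15. Drd2 averaged 29.8 times this background in MM and 37.0 times in MS, Penk 95.1 and 140 times, and Drd1 5.15 and 7.15 times, so the D2 markers stood far above the background and Drd1 was not at it. Chat, the choline acetyltransferase of the cholinergic interneurons that also use the Drd2 promoter, lay at 1.46 times the background in MM and 1.55 times in MS. In these bulk samples, fewer cells of a type and less RNA per cell cannot be told apart. Of 10 checks of the libraries (total, mitochondrial share, receptor density and the summed CPM of 7 marker lists of other cell classes), none passed between MM and MS in exact two-sided permutation tests, with adjusted p values of 0.691 or more. The smallest unadjusted p was 0.0720, for the mitochondrial share.

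With a model fitted to all 29 D2 libraries, none of 41125 tested genes differed between MM and MS at an adjusted p under 0.05 (edgeR's quasi-likelihood test, Benjamini-Hochberg adjustment), a share of 0%. The smallest adjusted p was 0.973. At an unadjusted p under 0.05, 1548 genes stood out against 2056 that chance gives, 1031 of them lower in MM (2.51% of the genes tested) and 517 higher (1.26%). limma voom on the same counts also called 0 genes, with 1672 at an unadjusted p under 0.05. DESeq2 called 1 gene, Egr1, at an adjusted p of 0.0248. No single gene therefore passed in the edgeR fit, and the values below are given as measured, with unadjusted p values that do not survive adjustment. Immediate early genes were frequent among the smallest p. Of the 20 genes with the smallest p in the whole table, 9 were on a list of 43 immediate early genes and 16 were lower in MM, and of the 100 with the smallest p, 17 were on the list.

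All 43 immediate early genes of the list passed the filter on low counts. In MM against MS, 36 were lower and 7 higher, with a median log2 fold change of -0.31 beside -0.00 over all tested genes, and 24 were lower at an unadjusted p under 0.05, against the 2.51% of all genes named above. No member was higher at that threshold. When only the 9847 genes at 2 times the background by their mean over all D2 libraries were kept and rescaled, the median of all of them was 0.02, and the 25 immediate early genes among them had a median of -0.44, with 24 lower and 17 lower at an unadjusted p under 0.05, against 2.82% of the 9847. The smallest adjusted p in that fit was 0.104. The mean used for this minimum includes the MS libraries, so a gene can reach it through its MS level. This choice of genes is therefore not fully independent of the difference.

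**Figure D1:**
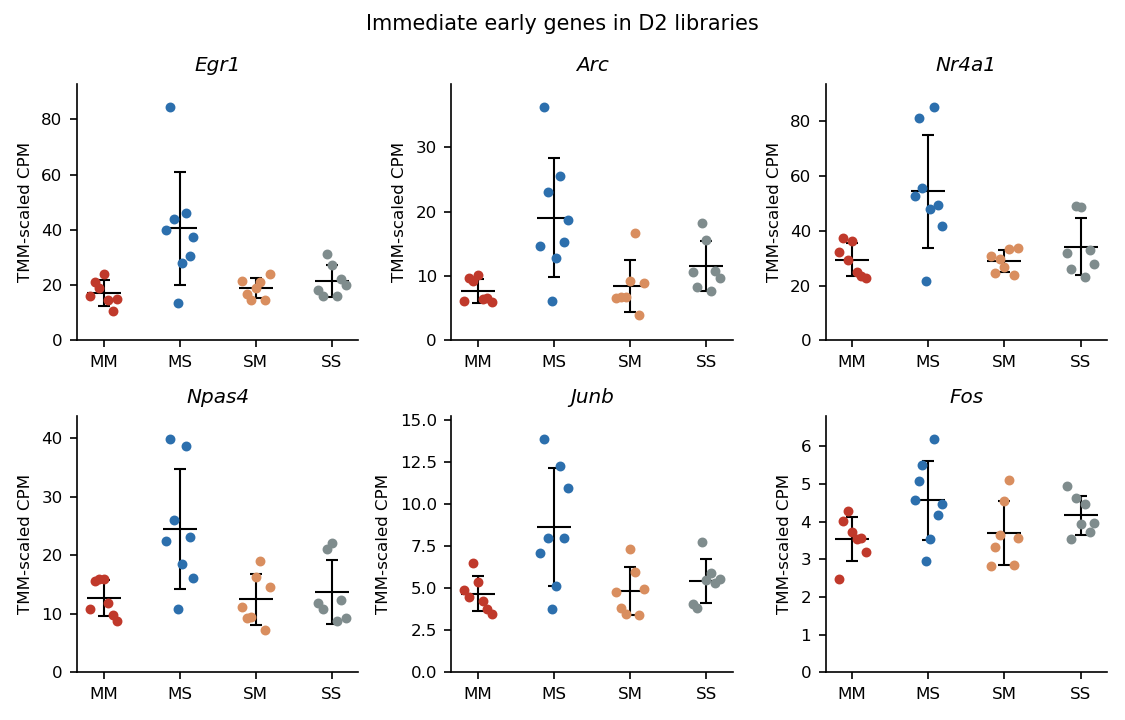
TMM-scaled CPM of 6 immediate early genes in each D2 library, by group (7 MM, 8 MS, 7 SM, 7 SS); points are libraries, and bars give the mean and SD. For Egr1, Arc, Nr4a1 and Npas4, 7 of the 8 MS libraries lie above every MM library, while MM overlaps SM and SS.

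Egr1 (chr18:34859823-34864984 on mm10, plus strand), a zinc finger factor of the ERK response, gave 10.6, 15.9 and 24.2 CPM as the lowest, median and highest MM library, against 13.7, 38.6 and 84.5 CPM in MS. Every MM library lay below 7 of the 8 MS libraries, and the exception was MS replicate 4. The means were 17.2 ± 4.60 CPM in MM (SD, n = 7) and 40.5 ± 20.6 CPM in MS (n = 8), a log2 fold change of -1.23 (SE 0.25, unadjusted p 5.23e-05, adjusted p 0.973 in edgeR's quasi-likelihood test), which is 0.425 times the MS level. Nr4a1 (chr15:101254269-101274795, plus strand), an orphan nuclear receptor induced through cyclic AMP and calcium, had 22.6, 29.2 and 37.5 CPM in MM and 21.5, 51.2 and 85.2 CPM in MS as lowest, median and highest. Its log2 fold change was -0.88 (SE 0.21), and again 7 of 8 MS libraries lay above all MM libraries. Npas4 (chr19:4984355-4990316, minus strand), a factor induced by calcium entry in neurons, had 8.73, 11.9 and 16 CPM in MM and 10.9, 22.8 and 39.9 CPM in MS, with a log2 fold change of -0.95 (SE 0.27). Junb (chr8:84974484-84978718, minus strand), a partner of Fos in the AP-1 dimer, had 3.49, 4.47 and 6.52 CPM in MM and 3.77, 7.99 and 13.9 CPM in MS, with a log2 fold change of -0.88 (SE 0.23).

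The rest of the Egr family had the same sign. Egr3, at 10.8 ± 3.97 CPM in MM and 19.0 ± 6.98 CPM in MS, had a log2 fold change of -0.81 (SE 0.23). Egr4 had one of -0.73 (SE 0.19) and Egr2 one of -0.32 (SE 0.10). Fos and Fosb, the genes most often used as marks of neuronal activity, were at low levels here. Fos averaged 3.54 ± 0.584 CPM in MM and 4.57 ± 1.04 CPM in MS, with a log2 fold change of -0.35 (SE 0.14, unadjusted p 0.0167). Fosb had -0.24 (SE 0.14, unadjusted p 0.107), so its groups were not told apart even without adjustment. Of the 20 transcription factors on the list, 15 were lower in MM and 12 were so at an unadjusted p under 0.05. Maff, Ier2, Crem, Atf3 and Nr4a2 were the 5 with a positive sign, at log2 fold changes of 0.01 to 0.36, and 4 of them lay at 1.22 to 1.49 times the background in MS or, for Ier2, at 0.709 times.

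Among the effectors, Arc (chr15:74669083-74672570, minus strand), whose product removes AMPA receptors from synapses, had 5.94, 6.59 and 10.1 CPM in MM against 6.07, 17.0 and 36.3 CPM in MS. Its log2 fold change of -1.30 (SE 0.30, unadjusted p 0.000199) was the most negative of all 41125 tested genes, and 7 of 8 MS libraries lay above all MM libraries. The neuronal pentraxin Nptx2 had 10.9 ± 1.93 CPM in MM and 15.8 ± 4.49 CPM in MS. The neuropeptide precursor Vgf had 29.7 ± 10.3 CPM in MM and 44.8 ± 16 CPM in MS. Homer1, whose short activity-induced form uncouples metabotropic glutamate receptors, had a log2 fold change of -0.25 (SE 0.18), and its counts do not separate the short form from the long ones. Bdnf, at 1.07 times the background in MS, gave 0.07 (SE 0.09). Of the 9 effectors, 8 were lower, 4 of them at an unadjusted p under 0.05.

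The kinases, phosphatases and other feedback genes of the list were lower in 13 of 14 cases, 8 of them at an unadjusted p under 0.05. Rgs2, which speeds the shut-off of G proteins, had 8.93 ± 1.12 CPM in MM and 13.9 ± 4.39 CPM in MS, with a log2 fold change of -0.63 (SE 0.15). Dusp6, a phosphatase of ERK, had 3.86 ± 0.509 CPM in MM and 6.06 ± 2.16 CPM in MS, a log2 fold change of -0.64 (SE 0.16). Spry2, an inhibitor of receptor tyrosine kinase signalling, had -0.77 (SE 0.23), and the small GTPase gene Arl4d had -0.74 (SE 0.18). Per1, a clock gene with a cyclic AMP response of its own, had 35.7 ± 14.3 CPM in MM and 64.9 ± 28.5 CPM in MS (log2 fold change -0.86, SE 0.28). Dusp1 and Sik1 differed less, with -0.04 (SE 0.06) and -0.20 (SE 0.11). Etv5, an ETS factor transcribed downstream of ERK, and Klf5, a Krüppel-like factor, are not on the list, and ranked 3 (Etv5) and 1 (Klf5) by p in the whole table. Klf5 gave 16.8 ± 1.86 CPM in MM and 24.4 ± 5.33 CPM in MS (log2 fold change -0.54, SE 0.11, unadjusted p 4.30e-05). Etv5 gave 51.7 ± 5.13 CPM in MM and 68.3 ± 14.0 CPM in MS (log2 fold change -0.40, SE 0.09). Mrpl18, a mitochondrial ribosomal protein gene, was the other gene outside the list among the 10 named as lower, at -0.44 (SE 0.10).

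The promoters of 32 of the 43 members are in RefSeq's table for GRCm38.p6, the build that mm10 names. The 250 bases before the start were searched on both strands for the cyclic AMP response element (CRE) TGACGTCA, its core TGACG, the AP-1 element TGANTCA and the CArG box of serum response factor. A full CRE also counts as a core on each strand. A gene counts as holding a motif when any of its listed promoters does. By this count the core stood in 23 of the 32 genes and in 12 of the 17 genes lower at an unadjusted p under 0.05, against 19.8% of the 27025 genes in the table. The full CRE stood in 6 of 32 and 1 of 17 (1.77% of all genes), the CArG box in 2 of 32 and 2 of 17 (1.62%), and the AP-1 element in 1 of 32 and 0 of 17 (7.82%). Below are the promoters of the 3 lower members with most TGACG cores and of Rgs2, which has the smallest p of 5 lower members with 2 cores each, from chr15:101266596-101266845 (plus strand) for Nr4a1, chr4:48045055-48045304 (plus strand) for Nr4a3, chr11:101665291-101665540 (plus strand) for Arl4d and chr1:144004150-144004399 (minus strand) for Rgs2. Capitals mark TGACG or its reverse complement. Base composition was not matched, and a match describes letters, not binding.
Nr4a1: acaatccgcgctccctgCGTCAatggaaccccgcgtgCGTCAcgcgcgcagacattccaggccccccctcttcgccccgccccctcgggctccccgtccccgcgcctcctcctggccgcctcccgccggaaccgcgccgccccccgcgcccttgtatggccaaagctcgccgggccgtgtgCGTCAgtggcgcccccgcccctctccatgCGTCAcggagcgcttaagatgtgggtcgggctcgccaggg
Nr4a3: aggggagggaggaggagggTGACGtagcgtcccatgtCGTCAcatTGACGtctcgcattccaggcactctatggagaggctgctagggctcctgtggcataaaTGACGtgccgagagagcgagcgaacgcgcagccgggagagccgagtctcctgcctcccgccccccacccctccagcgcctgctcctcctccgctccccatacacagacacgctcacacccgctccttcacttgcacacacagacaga
Arl4d: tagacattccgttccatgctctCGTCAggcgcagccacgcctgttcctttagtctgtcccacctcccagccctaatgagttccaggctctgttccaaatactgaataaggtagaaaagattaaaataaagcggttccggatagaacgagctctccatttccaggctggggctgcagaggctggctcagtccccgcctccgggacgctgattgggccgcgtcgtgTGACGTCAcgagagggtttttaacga
Rgs2: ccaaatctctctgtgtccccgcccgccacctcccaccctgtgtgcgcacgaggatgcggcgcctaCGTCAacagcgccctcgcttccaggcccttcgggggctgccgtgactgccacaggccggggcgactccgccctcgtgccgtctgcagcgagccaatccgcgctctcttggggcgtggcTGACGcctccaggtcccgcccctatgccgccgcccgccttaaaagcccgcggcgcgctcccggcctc

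The noncoding transcript 1700016P03Rik (chr11:75172560-75177633, plus strand), named here after its values were seen, contains the genes of the activity-induced microRNAs miR-212 and miR-132. It had 5.30, 7.92 and 11 CPM as lowest, median and highest in MM, and 7.28, 15.7 and 28.4 CPM in MS. Its log2 fold change was -1.04 (SE 0.28, unadjusted p 0.000926), and 6 of 8 MS libraries lay above all MM libraries. The mature microRNAs were not measured. Their 3p strands share the seed, bases 2 to 8, in capitals in the RefSeq sequences:
mmu-miR-132-3p: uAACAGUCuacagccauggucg
mmu-miR-212-3p: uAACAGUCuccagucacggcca

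The groups with a saline history place these levels. The mean log2 CPM of the 43 immediate early genes was 3.33 ± 0.14 in MM, 3.34 ± 0.15 in SM, 3.41 ± 0.15 in SS and 3.70 ± 0.25 in MS. MM, SM and SS overlapped broadly, and MS was the group that stood above the others. The groups differed in library properties as well. Markers of both projection neuron classes had a mean log2 CPM of 7.55 ± 0.34 in SM and 7.52 ± 0.27 in SS. In MM it was 7.87 ± 0.62 and in MS 8.20 ± 0.57. Receptor density was 0.411 to 0.607 in SM and 0.458 to 0.568 in SS, beside 0.325 to 0.530 in MS. The part of these properties in the place of MS above SM and SS was not tested. For Egr1 the means were 17.2 ± 4.60 CPM in MM, 18.9 ± 3.66 in SM, 21.6 ± 5.83 in SS and 40.5 ± 20.6 in MS. For Arc they were 7.72 ± 1.84, 8.41 ± 4.03, 11.6 ± 3.90 and 19.1 ± 9.23 CPM in the same order. The MS libraries were also the most spread. MS replicates 2 and 6 had the highest list means, at 4.09 and 3.97, and MS replicate 4, at 3.29, lay within the MM range of 3.12 to 3.49. Without MS replicate 4, edgeR gave log2 fold changes of -0.61 for Klf5 and -1.36 for Egr1, at an adjusted p of 0.0313 each, the only calls in that fit (0.00488% of the genes tested). That library was singled out by its immediate early level, so these values describe its weight and are no test.

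**Figure D2:**
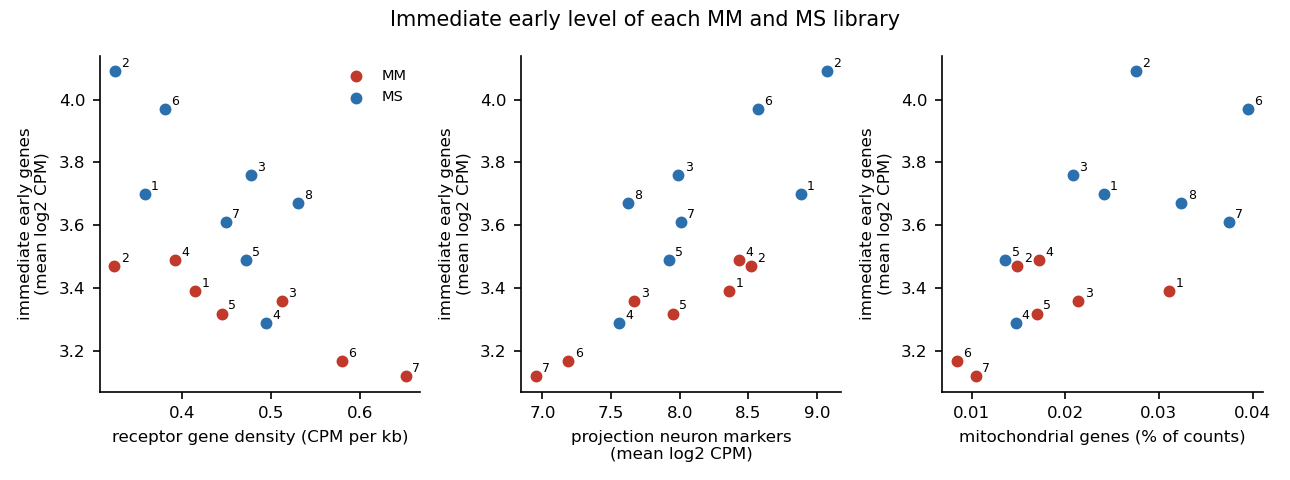
Mean log2 CPM of the 43 immediate early genes in each MM and MS library (replicate numbers beside the points) against receptor density in CPM per kb, the mean log2 CPM of 12 projection neuron markers, and the percentage of counts in mitochondrial genes. MM replicates 6 and 7 have the highest receptor density and the lowest immediate early level (3.17 and 3.12), and MS replicates 2 and 6 have the highest level (4.09 and 3.97). MM replicate 2 has the lowest receptor density (0.324), and no MM library has a level above 3.49.

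Library properties moved with this level in some libraries and not in others. MM replicates 6 and 7, with densities of 0.579 and 0.651 CPM per kb, had the lowest immediate early means, and MS replicate 2, with 0.325, had the highest. MM replicate 2 had the lowest density, 0.324, with Egr1 at 21.3 CPM, next below the highest MM value of 24.2 CPM in replicate 4. In MS replicate 2 Egr1 was at 84.5 CPM. No MM library had a list mean above 3.49. MS replicate 8, at 0.530, had Egr1 at 37.3 CPM. With the density as a covariate, the immediate early median was -0.28 and 26 members were lower at an unadjusted p under 0.05, against 4.34% of all genes. Without MM replicates 2, 6 and 7, the libraries outside the range of density that both groups share, the median was -0.29. The markers of projection neurons of both classes had a mean log2 CPM of 7.87 ± 0.62 in MM and 8.20 ± 0.57 in MS, a list median of -0.34 with 0 of 12 members called. With that mean as a covariate, the immediate early median was -0.26 and 25 members were lower at an unadjusted p under 0.05, against 3.56% of all genes. Mitochondrial genes took 0.00841 to 0.0311% of counts in MM and 0.0136 to 0.0395% in MS. With their share as a covariate the immediate early median was again -0.26, with 25 members lower at an unadjusted p under 0.05, against 1.56% of all genes. The fits with the marker mean or the mitochondrial share as covariate, and the one without 3 MM libraries, were chosen after seeing the data.

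The density covariate brought 1 gene past the threshold. Ywhag, which encodes a 14-3-3 adaptor protein, fell in MM with a log2 fold change of -0.37 (SE 0.06, adjusted p 0.0286, edgeR), 0.00243% of the genes tested. With the covariate and only genes at 2 times the background, Egr3 fell (log2 fold change -0.58, SE 0.10, adjusted p 0.0224) and Crym, which encodes a thyroid hormone binding protein of the striatum, rose (0.46, SE 0.09, adjusted p 0.0431), 0.0203% of the 9847 genes. The fit that called Egr3 and Crym was also chosen after seeing the data. Ywhag and Crym are named because these fits called them.

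**Figure D3:**
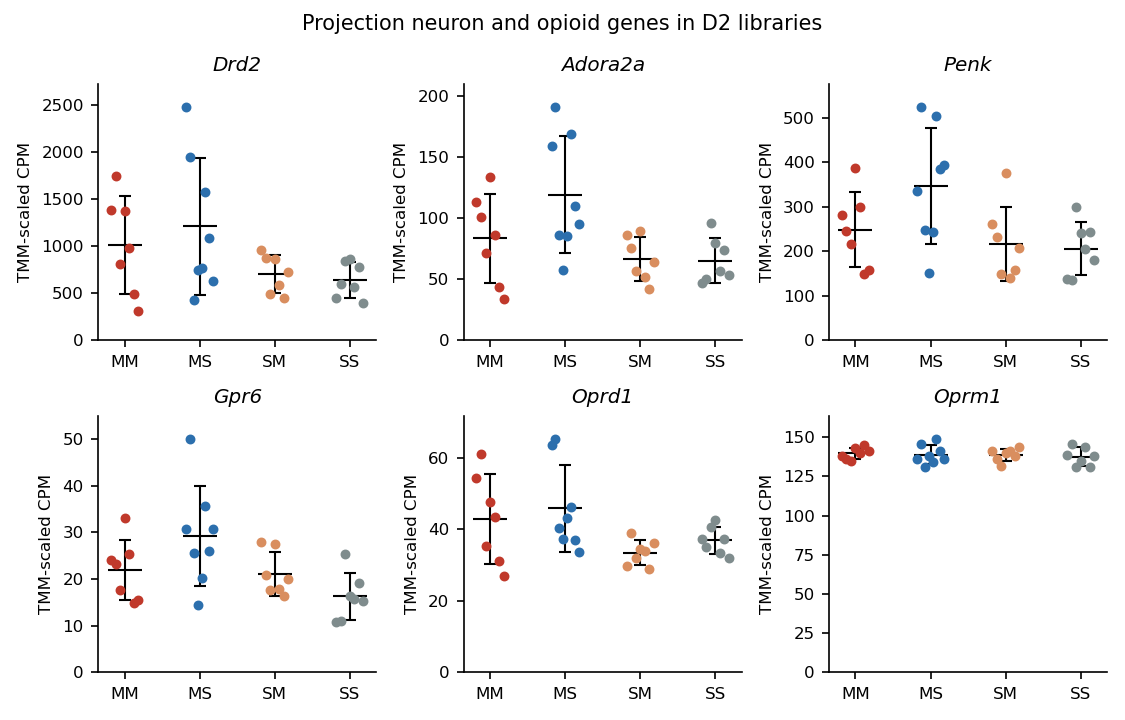
TMM-scaled CPM of projection neuron genes and opioid receptors in each D2 library, by group (7 MM, 8 MS, 7 SM, 7 SS); points are libraries, and bars give the mean and SD. MM and MS overlap for all 6 genes, and Oprm1 lies between 131 and 149 CPM in MM and MS libraries.

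Genes that define D2 neurons overlapped between the groups. Drd2 ran from 315 to 1750 CPM in MM and from 433 to 2480 CPM in MS, with a log2 fold change of -0.25 (SE 0.35). Penk had 150, 245 and 387 CPM in MM and 151, 359 and 524 CPM in MS as lowest, median and highest (log2 fold change -0.49, SE 0.26). Adora2a had -0.51 (SE 0.28) and the constitutively active receptor Gpr6 -0.41 (SE 0.22). The list of D2 markers had a median of -0.25 over 9 tested of 10 listed members, 0 of them called, and -0.13 with the density covariate. Of the genes of the D1 class, Drd1 had -0.40 (SE 0.24) and Pdyn, the dynorphin precursor, -0.06 (SE 0.10). Tac1, the substance P precursor, had -0.42 (SE 0.19), or -0.17 without MS replicate 2.

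Opioid receptors and peptides had a median of -0.10 over 7 tested genes, with 0 called. Oprm1, the receptor through which morphine acts, had 140 ± 3.80 CPM in MM and 139 ± 5.97 CPM in MS, with a log2 fold change of 0.01 (SE 0.04). It lay at 1.03 and 1.08 times the background, so most of its counts cannot be told from background at this depth. Oprd1, the enkephalin receptor, had 42.9 ± 12.5 CPM in MM and 45.9 ± 12.1 CPM in MS (log2 fold change -0.10, SE 0.15), at 2.56 and 2.89 times the background. Oprk1 had -0.16 (SE 0.15), and Oprl1, the nociceptin receptor, had -0.28 (SE 0.13, unadjusted p 0.0330). Of the 43 tested genes of dopamine and cyclic AMP signalling, 37 were lower and 0 were called, with a median of -0.21 that became -0.08 with the density covariate. Among them were the cyclases Adcy1 (log2 fold change -0.12, SE 0.05) and Adcy3 (-0.16, SE 0.09), and the adenosine receptor Adora1 (-0.29, SE 0.14).

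**Figure D4:**
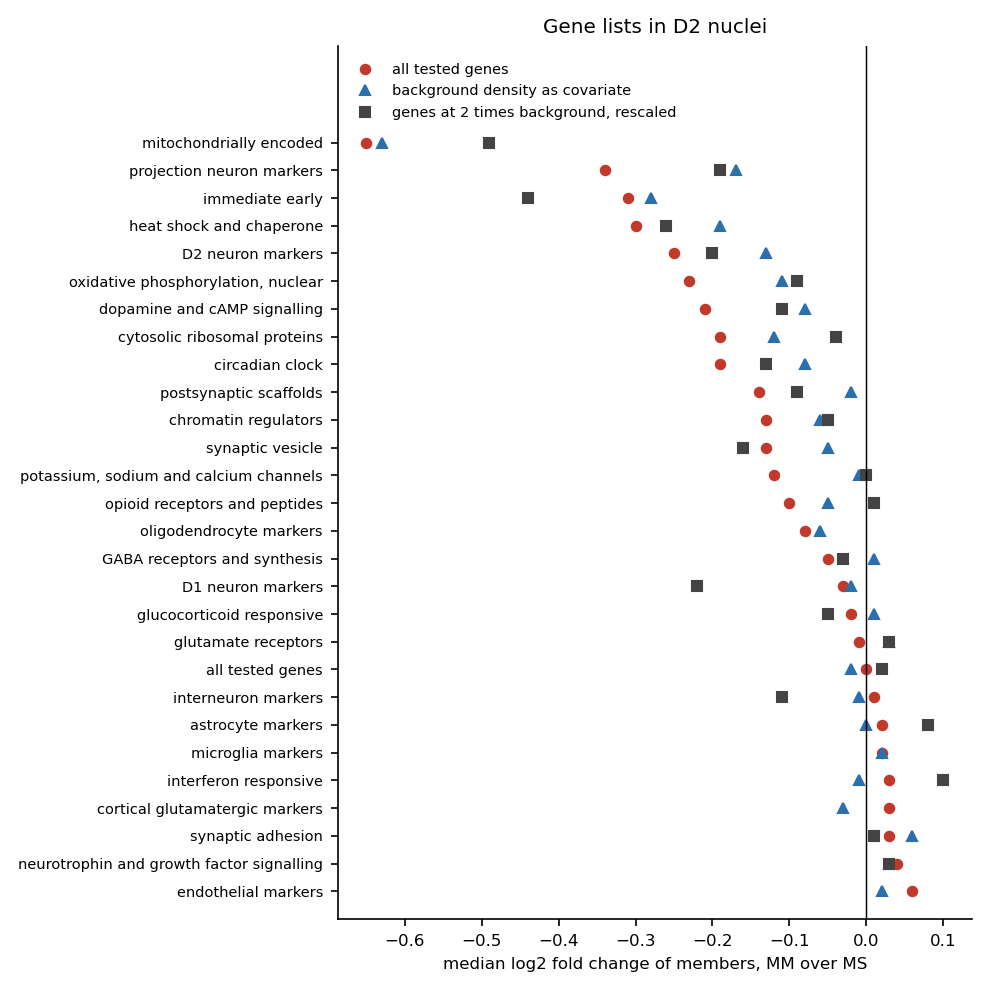
Median log2 fold change of the tested members of each gene list, MM over MS, in the fit of all tested genes, with the receptor density as covariate, and with only genes at 2 times the background, rescaled. The immediate early list is at -0.31, -0.28 and -0.44, while the lists of ribosomal proteins, oxidative phosphorylation and dopamine signalling move towards 0 in the other fits. The minimum of 2 times the background uses the mean over all D2 libraries, MS included.

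Of 20 tested heat shock and chaperone genes, 18 were lower and 8 of these at an unadjusted p under 0.05, against 2.51% of all genes, with a median of -0.30, or -0.19 with the density covariate and -0.26 among genes at 2 times the background. That count of 8 was 3 without MM replicate 6 or 7 or MS replicate 2 or 6, 5 without MM replicate 3 or MS replicate 1, and 12 without MM replicate 4 or MS replicate 4. Hspa8, the constitutive Hsc70 chaperone, had 57.6 ± 12.7 CPM in MM and 86.9 ± 33.2 CPM in MS (log2 fold change -0.59, SE 0.23). Its cochaperone Dnajb1 had -0.46 (SE 0.15), and Hsph1, its exchange factor, -0.52 (SE 0.18). Of 20 clock genes, 18 were lower, and Per2 was the one with the smallest p, at 52.4 ± 11.9 CPM in MM and 76.5 ± 22.6 CPM in MS (log2 fold change -0.55, SE 0.16, unadjusted p 0.00155). Bhlhe40, a clock repressor, had -0.32 (SE 0.13), and the clock kinases Csnk1d and Csnk1e had -0.21 (SE 0.11) and -0.20 (SE 0.11).

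Genes of the mitochondrial genome were lower in all 7 tested of 13, with a median of -0.65. Of them, 3 were so at an unadjusted p under 0.05, against 2.51% of all genes. That count of 3 ran from 0 to 7 with a library left out. mt-Nd4, a subunit of complex I, had 4.28 ± 1.24 CPM in MM and 7.02 ± 2.66 CPM in MS (log2 fold change -0.73, SE 0.33). In SM against SS, which uses other libraries, the median of the same 7 was 0.85, and 7 were higher in SM at an unadjusted p under 0.05. Over all 41125 genes, 1333 were at that threshold in SM against SS, in either direction. SM replicate 1 decides the values of the 7: without it their median was 0.34, and 0 of the 7 were higher at that threshold. The difference between the histories had a median of -1.44 over the 7, or -0.97 without SM replicate 1, with 0 called in either fit. Nuclear genes of oxidative phosphorylation (39 of 39 gene ids of the 38 listed genes lower, median -0.23) and of the cytosolic ribosome (43 of 43 lower, median -0.19) had small differences, and their medians were -0.11 and -0.12 with the density covariate and -0.09 and -0.04 among genes at 2 times the background. Glucocorticoid responsive genes had a median of -0.02 over 18 genes, 10 of them lower. Fkbp5 had a log2 fold change of 0.09 (SE 0.07), Sgk1 -0.07 (SE 0.10), Tsc22d3 0.04 (SE 0.07), Nr3c1, the glucocorticoid receptor, -0.08 (SE 0.07), and Mt1 -0.30 (SE 0.26). Sult1a1 had -0.36 (SE 0.13). Glutamate receptors (median -0.01 over 24 genes), synaptic adhesion molecules (0.03 over 35) and GABA receptors and synthesis (-0.05 over 20) had medians close to that of all genes. Medians were -0.12 for ion channels (45 genes), -0.14 for postsynaptic scaffolds (18), -0.13 for synaptic vesicle genes (33), -0.13 for chromatin regulators (52), 0.04 for neurotrophin and growth factor signalling (12) and 0.03 for interferon responsive genes (20). The marker lists of other cell classes had medians from -0.08 (oligodendrocytes) to 0.06 (endothelium). None of these lists had a called member in either direction, and 1 library moves several of these medians by over 1.5 times. Without MM replicate 2 they were -0.24 for ion channels, -0.23 for synaptic vesicle genes and -0.21 for chromatin regulators, and without MS replicate 2 they were -0.04 for vesicle and -0.07 for chromatin genes.

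On the other side, no group of genes stood out. The 10 named genes with a positive log2 fold change, which had the smallest p among genes at 2 or more times the background in at least 1 group, ran from 0.12 to 0.29, with unadjusted p of 0.0358 to 0.0958. The first of them ranked 1029th by p. They were Prss42, Olfr1564, Shbg, Insl6, Olfr578, Lyzl6, Ccdc96, Serpina3j, Pdcl and Dok2, at 2.01 to 2.44 times the background in MM and 1.81 to 2.26 times in MS. So 5 of them reached that minimum in MM alone, as 3 of the 10 named as lower did in MS alone, and this minimum is not independent of the difference. Of the 10, 2 are olfactory receptor genes of the kind used to measure the background.

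**Figure D5:**
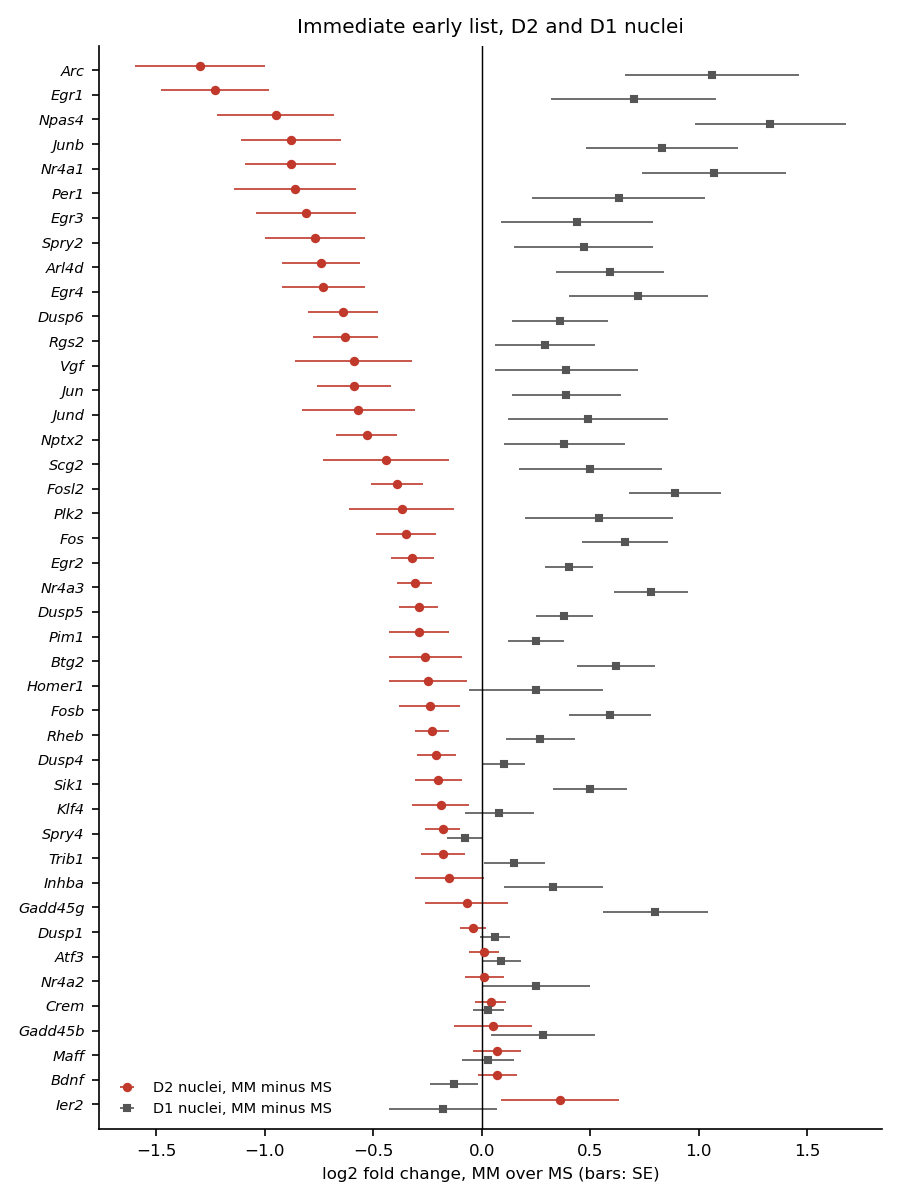
Log2 fold change of MM over MS for the 43 immediate early genes in D2 nuclei (circles) and in D1 nuclei (squares), with SE bars, ordered by the D2 value. In D2, 36 are below 0, and in D1, 40 are above 0.

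The same challenge comparison in D1 nuclei places the D2 values by cell class. Beside the D2 median of -0.31, the immediate early median in D1 MM against MS was 0.39 in the joint fit of 61 libraries, with 40 of 43 higher and 15 so at an unadjusted p under 0.05, against 1.63% of all genes. Without D1 MM replicate 3, the median was 0.25, with 11 higher at that threshold. Receptor density was 0.303 to 0.499 CPM per kb in D1 MM and 0.278 to 0.561 in D1 MS. D1 MM replicates 3 and 7 had the highest immediate early means (4.66 and 4.27, log2 of CPM plus 1), at densities of 0.303 and 0.320. D1 MS replicate 2 had 4.09 at 0.278, and D1 MS replicate 6 had 3.45 at 0.439. The D1 comparison alone was not fitted with the density as covariate. Markers of other cells differed between these D1 groups too. Slc17a7, the vesicular glutamate transporter of cortical neurons, had 7.66, 20 and 72.9 CPM in D1 MM and 8.95, 10.7 and 16.4 CPM in D1 MS as lowest, median and highest, and Sst, the somatostatin gene of interneurons, had 7.3, 22.2 and 37.6 CPM in D1 MM and 4.96, 10.3 and 16.8 CPM in D1 MS. D1 MM replicate 3 had the highest values of both, and also of Npas4 and Arc. The other D1 MM libraries varied. Replicate 4 had the next highest Slc17a7 (41.5 CPM), Npas4 (52 CPM) and Arc (33.4 CPM), with Sst at 22.2 CPM. Replicate 2, with Slc17a7 at 12.3 and Sst at 9.11 CPM, had the lowest Npas4 (12.7 CPM) and Arc (8.95 CPM). Replicates 7 and 5 did not follow this order. Replicate 7 had the lowest Slc17a7 of D1 MM (7.66 CPM), with Npas4 at 48.3 and Arc at 32.7 CPM. Replicate 5 had Slc17a7 at 21.6 and Sst at 22.2 CPM, with Npas4 at 17 and Arc at 11.5 CPM. Of the 10 cortical markers 8 were higher in D1 MM, with a summed level of 164 to 265 CPM against 160 to 205 CPM in D1 MS, and of the 13 interneuron markers 9 were, with 273 to 369 CPM against 269 to 315 CPM. In each of these lists 2 members were higher at an unadjusted p under 0.05 and 0 were called, and no member was at 0 in a D1 library. The projection neuron markers were higher in 12 of 12 cases, with a median of 0.41. The part of these markers in the D1 values, and in the difference between the classes, was not tested. The difference of the responses, D2 minus D1, was tested per gene in edgeR, and 0 of 42870 genes passed, with 1529 at an unadjusted p under 0.05 and a smallest adjusted p of 0.479. DESeq2 also called 0 genes, with 2225 at an unadjusted p under 0.05. Of the immediate early genes, 39 had a lower response in D2 than in D1, with a median log2 difference of -0.88, and 27 did so at an unadjusted p under 0.05 (1.76% of all genes). Without D1 MM replicate 3 the median difference was -0.71, with 22 genes at that threshold. With the density covariate, 4 genes passed (0.00933%), and all 4 are on the list. Dusp5 had a log2 difference of -0.54 (SE 0.10, adjusted p 0.0321), and Nr4a3 of -0.90 (SE 0.17), Fosl2 of -1.03 (SE 0.20) and Npas4 of -1.86 (SE 0.36) had an adjusted p of 0.0494 each. The covariate also made differences smaller. Npas4 had -2.28 without it. Egr1 went from -1.94 to -1.43, Arc from -2.36 to -1.86 and Homer1 from -0.49 to -0.14, while Dusp1 stayed at -0.10.

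Npas4 serves as an example of the levels in both classes, and passed in neither (adjusted p 0.973 in D2 and 0.889 in D1, edgeR). In D2 nuclei it had 8.73 to 16 CPM in MM and 10.9 to 39.9 CPM in MS, on the scaling of the D2 libraries. In D1 nuclei it had 12.7, 33.5 and 79 CPM as lowest, median and highest in MM, and 8.51, 13.7 and 24.2 CPM in MS, on the joint scaling. In D1 the MM median lay above every MS library. Arc in D1 had 26.4 ± 20.7 CPM in MM (SD, n = 7) and 12.7 ± 4.97 CPM in MS (n = 9). The spread of the D1 MM libraries was wide for both.

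Within D2 nuclei, the challenge after a saline history (SM against SS) had an immediate early median of -0.04, with 32 of 43 lower and 2 lower at an unadjusted p under 0.05, against 1.95% of all genes. The responses in the morphine and the saline history share no library, and their difference was tested per gene. None of 41125 genes passed (smallest adjusted p 0.991 in edgeR, 1464 genes at an unadjusted p under 0.05, and 0 called by DESeq2 with 1774 at that threshold). For the immediate early genes the median log2 difference was -0.25, with 37 of 43 more negative after the morphine history and 14 so at an unadjusted p under 0.05, against 1.71% of all genes. Egr1 had -1.04 and Rgs2 -0.63, with unadjusted p of 0.00823 and 0.00775. That count of 14 fell to 6 without MS replicate 2, to 7 without SM replicate 1 and to 8 without MM replicate 6, and to 9 without MM replicate 7, MS replicate 6 or SS replicate 2. With the density covariate, edgeR again called 0 genes for the difference between histories. The smallest adjusted p was then 0.0715, with 3778 genes at an unadjusted p under 0.05.

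Across all tested genes, 31 (0.0754%) had every MM library below at least 7 of the 8 MS libraries, and 8 of these 31 were immediate early genes. They were Egr1, Arl4d, Arc, Rgs2, Nr4a1, Nr4a3, Jun and Npas4.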

How the data were processed

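RNA of sorted nuclei was sequenced with a stranded total RNA kit, per the labels' protocols. The raw counts per gene were deposited by the authors, and the submitters' processing notes name featureCounts, DESeq2 and mm10. Aligner, strand setting and tool versions were not given in the sources used here. Deposited FPKM values were used only to check gene length: for 38972 of 38972 gene ids they equal counts over library total and the whole gene span, within 0.001. Of 55401 ids, 55141 matched the annotation without the version number.

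Counts were tested with edgeR 4.0.16 in R 4.3.3 (TMM scaling, filterByExpr, robust quasi-likelihood test, Benjamini-Hochberg adjustment), in 1 fit of 29 D2 libraries and 1 joint fit of 61 libraries. A gene was called at an adjusted p under 0.05. DESeq2 1.42.0 and limma 3.58.1 were alternatives, with other filters, covariates, libraries left out and the replicate number as a block. The main edgeR fit was also run on simulated counts with the same spread for every gene and no background differences between libraries. That run checks the code, not how the test behaves in these libraries. Library properties were compared by exact two-sided permutation tests over 6435 regroupings. Replicate pairs differed by 2.26 to 55.3 times the sampling noise (chi-square per degree of freedom), so every library was counted as its own sample. Same-numbered libraries did not pair: their correlations ran from -0.45 to 0.47.

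The text names up to 10 genes per direction with the smallest p at a mean log2 CPM of at least 1 and at 2 or more times the receptor background, at most 4 members of each of 5 lists, taken by smallest p, fixed genes of the pathways, and genes that an alternative called. Other list members serve as examples. The members and lists were chosen with earlier results of these data known. The values of 1 gene of the lists are not reported here.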

Additional observations from a re-analysis of the deposited data

Results flagged for a closer look

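In 170 groups of 7 or 8 libraries checked for a library far from the rest, 5 stood out, and chance flags about 1 in 20. MS replicate 2 stood above the other MS libraries for Egr1 (84.5 CPM, next 46.1), Arl4d (9.79 CPM, next 5.92), Tac1 (54.2 CPM, next 28.5) and the summed oligodendrocyte markers (255 CPM, next 216). MM replicate 2 stood above the other MM libraries for Homer1 (217 CPM, next 140).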

How the results depend on the processing

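The count of 0 called genes in MM against MS became 1 with DESeq2, 1 with the density covariate and 2 with that covariate among genes at 2 times the background, and ran from 0 to 2 with each library left out (2 without MS replicate 4). With the replicate block it stayed 0, with 1142 genes at an unadjusted p under 0.05 and 22 immediate early genes lower at that threshold, against 24 without it; the numbers do not pair the libraries. The other alternatives also gave 0. The count of immediate early genes lower at an unadjusted p under 0.05 ran from 17 (of 25 tested, genes at 2 times the background) to 26, and from 21 to 25 with a library left out. The D2 and D1 responses differed in 4 genes with the density covariate. The count for the difference between histories ran from 6 to 18 with a library left out. List medians ran, with a library left out, from -0.33 to -0.27 for immediate early genes, -0.38 to -0.20 for heat shock, -0.28 to -0.11 for dopamine signalling, -0.26 to -0.09 for clock, -0.21 to -0.04 for opioid, -0.24 to -0.03 for channel, -0.23 to -0.06 for scaffold, -0.27 to -0.12 for oxidative phosphorylation, -0.43 to -0.14 for D2 marker and -0.47 to -0.22 for projection neuron genes.

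Of the named genes' fold changes under the alternatives, 1425 kept their sign and side of the threshold, 4 passed the threshold and 26 changed sign, all in the genes given next. With the covariate and genes at 2 times the background, Oprk1 was 0.029, Drd2 0.062, Sgk1 0.08, Oprd1 0.085 and Pdyn 0.085. Among genes at 2 times the background without it, Oprk1 was 0.011, Sgk1 0.078, Oprd1 0.056 and Pdyn 0.10. With the density covariate alone, Oprd1 was 0.0019, Pdyn 0.00073 and Tsc22d3 -0.0066. With the projection neuron covariate, Oprk1 was 0.044, Drd2 0.17, Sgk1 0.053, Oprd1 0.086, Pdyn 0.023 and Tsc22d3 -0.032. With the mitochondrial covariate, Mt1 was 0.06, Drd2 0.087, Sgk1 0.0052 and Pdyn 0.035. Tsc22d3 was -0.021 among libraries of common density and ran from -0.00049 to 0.066 with a library left out. Oprm1 was -4.3e-05 with DESeq2 size factors and ran from -0.0015 to 0.024. The causes were not tested.

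With a library left out, the difference MM minus MS ran from -912000 to 419000 for total counts, and in summed CPM from -13.3 to 2.33 for D1 neuron, -0.667 to 10.0 for cortical, -2.0 to 9.14 for interneuron, -59.5 to 3.0 for astrocyte and -0.571 to 2.29 for microglia markers. If the receptor density held over the summed spans of all genes, background would take 42.2 to 84.9% of an MM library and 42.4 to 69.1% of an MS library. This is an extrapolation that counts overlapping spans more than once. Such a background limits what depth can show for genes near it.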
